A study of Mus musculus with 20 samples.

Results

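The respiratory chain genes of mouse immune cells from the eye are described here: the genes whose products build the electron transport chain and the ATP synthase of mitochondria. Members were chosen by symbol alone: names starting with Nduf, Cox4 to Cox8, Uqcr, Sdh or Atp5 for genes of the nucleus, and mt-Nd, mt-Co, mt-Cytb or mt-Atp for genes of the mitochondrial genome. Pseudogenes marked "-ps" and read-through names were left out. The rule found 109 of the 25392 genes counted. Of these, 96 are nuclear and 13 are mitochondrial. The nuclear members hold 85 genes grouped as subunits, of which 36 belong to complex I, 4 to complex II, 8 to complex III, 20 to complex IV and 17 to complex V, and 11 genes named as assembly factors for complexes I and II. Complex V was assigned by symbol alone. Its 17 genes include Atp5s and Atp5sl, whose present names, Dmac2l and Dmac2, no longer place them there. Both were too low to be tested in any fit. The mitochondrial genome gives 7 members to complex I, 1 to complex III, 3 to complex IV and 2 to complex V.

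The cells were CD45+ leukocytes, stained for CD45 and CD11b, from eyes of C57BL/6 mice aged 8 weeks and kept free of specific pathogens. They were sorted singly into plates and sequenced by mCEL-Seq2, which counts each transcript once by a random identifier at its 3′ end. There were 20 libraries of 192 wells each, 4 for each of 5 groups: retina without a lesion (control), retina 3 days after laser lesions that provoke choroidal neovascularization, retina 7 days after the same laser, cornea, and ciliary body. No transgene, Cre line or drug is given for any group. The authors annotated 829 wells in 2 tables. The table of the retina names microglia, dendritic cells (DCs) and 1 class that joins granulocytes, lymphocytes and monocytes, called the joint class here. The table of the eye compartments names microglia, macrophages and a joint class.

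For every test the wells of 1 class were summed over the 2 libraries of a group that share the start of their title, called a pair here, so each group and class has 2 sums. The labels do not say which mouse a library came from, so p-values measure the spread between these sums, which may be partly technical. Levels are counts per 1000000 transcripts after edgeR's scaling between sums (scaled CPM). "Called" means an adjusted p under 0.05 in edgeR's quasi-likelihood test, with Benjamini-Hochberg adjustment over all genes tested. A sum cannot tell fewer cells of a type from less RNA per cell.

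Complex I, or NADH dehydrogenase, and complex II, or succinate dehydrogenase, pass electrons to ubiquinone. Complex III hands them on to cytochrome c, complex IV passes them to oxygen, and complex V uses the proton gradient built up on the way to make ATP. The mitochondrial genome encodes core subunits of every complex except complex II, and all other subunits come from nuclear genes, so the enzymes need transcripts of both genomes. Microglia are the resident macrophages of the retina, and tissue macrophages are known to shift between oxidative phosphorylation and glycolysis when they are activated.

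Over all wells of a library, nuclear members made up 0.608% to 1.08% of transcripts in the 20 libraries and mitochondrial mRNA 3.33% to 25.4%, at total counts of 371329 to 3325820 transcripts. In annotated microglia the microglia markers summed to between 10388 and 17197 scaled CPM in each of the 4 control and day 3 sums, and none of the 10 markers was at 0. In the dendritic cells all 11 dendritic cell markers had transcripts, at 55054 to 77334 scaled CPM in sum. Macrophages of the cornea had 924.6 to 1083 scaled CPM of the 10 tissue macrophage markers, with 4 at 0, and those of the ciliary body 321.5 to 627.2, with 3 at 0. Both also held the dendritic cell markers, at 35710 to 59783. All 13 mitochondrial members are absent from both of the authors' tables, and Cox5b and Ndufaf7 from that of the compartments, so every level here was read from the library files.

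Promoters are shown for 3 of the nuclear members whose transcripts were higher in microglia on day 3, because they hold a motif of factors known to bind promoters of respiratory genes. The 250 bases before the transcription start are from RefSeq (GRCm38.p6), which matched 80 of the 96 nuclear members. Capitals mark matches on either strand to GCGCATGCGC, a pair of GCGCA half-sites facing each other as bound by nuclear respiratory factor 1 (NRF1), or to CCGGAAG, the core bound by ETS factors such as GABP (nuclear respiratory factor 2); no match of one overlapped the other. Cox6a1, a subunit of complex IV, lies on the minus strand with this window at chr5:115348959-115349208 and has both motifs. Ndufa11, a subunit of complex I, lies on the plus strand at chr17:56717512-56717761 and has the first. Uqcr11, a small subunit of complex III, lies on the minus strand at chr10:80406822-80407071 and has the second.
Cox6a1: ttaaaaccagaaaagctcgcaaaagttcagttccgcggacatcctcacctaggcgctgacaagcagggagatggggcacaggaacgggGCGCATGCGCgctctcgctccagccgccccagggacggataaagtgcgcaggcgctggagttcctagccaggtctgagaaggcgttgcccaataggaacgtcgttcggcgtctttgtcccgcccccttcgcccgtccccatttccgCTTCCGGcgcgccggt
Ndufa11: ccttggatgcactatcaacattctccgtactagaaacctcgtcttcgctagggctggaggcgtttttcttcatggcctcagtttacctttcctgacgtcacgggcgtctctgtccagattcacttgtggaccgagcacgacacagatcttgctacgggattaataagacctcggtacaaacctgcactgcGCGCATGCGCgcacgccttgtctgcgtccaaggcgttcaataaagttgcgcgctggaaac
Uqcr11: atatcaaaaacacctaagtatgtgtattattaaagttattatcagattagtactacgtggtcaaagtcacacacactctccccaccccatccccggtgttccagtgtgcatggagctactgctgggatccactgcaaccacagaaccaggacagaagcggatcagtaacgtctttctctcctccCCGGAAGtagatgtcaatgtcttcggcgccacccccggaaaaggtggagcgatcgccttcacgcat

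GCGCATGCGC was found in 5 of the 80 matched promoters (6.25%), against 237 of the 27025 genes of the whole promoter table (0.877%). CCGGAAG was found in 15 of the 80 (18.8%), against 2115 of 27025 (7.83%). Among the 15 matched promoters of members higher on day 3, 2 held the first motif and 6 the second; among 45 tested members that were not called, 2 and 5 did. These are matches of letters, with no measure of binding, and Cox6a1, Ndufa11 and Uqcr11 were picked for display after their values were seen.

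Microglia of the lasered retina on day 3 were compared with microglia of the control retina, which asks how these resident cells differ early after the laser. Nuclear genes of the chain were higher on day 3, among them subunits of the ATP synthase and of complex IV. Transcripts of the mitochondrial genome were lower relative to the other genes after scaling, while their share of all transcripts overlapped between the groups. Of 85 members tested, 16 rose and 8 fell, against 22.3% of all 3704 genes tested that were called (10.6% higher, 11.6% lower). All 16 that rose were nuclear subunits. The 8 that fell were 7 of the 13 mitochondrial genes and Ndufaf7, the methyltransferase that helps to build complex I and the only assembly factor abundant enough to test. The median log2 difference was 0.80 over the 71 nuclear subunits tested, with 69 above 0, and -0.65 over the 13 mitochondrial genes, with 12 below 0, beside 0.02 over all genes.

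**Figure D1:**
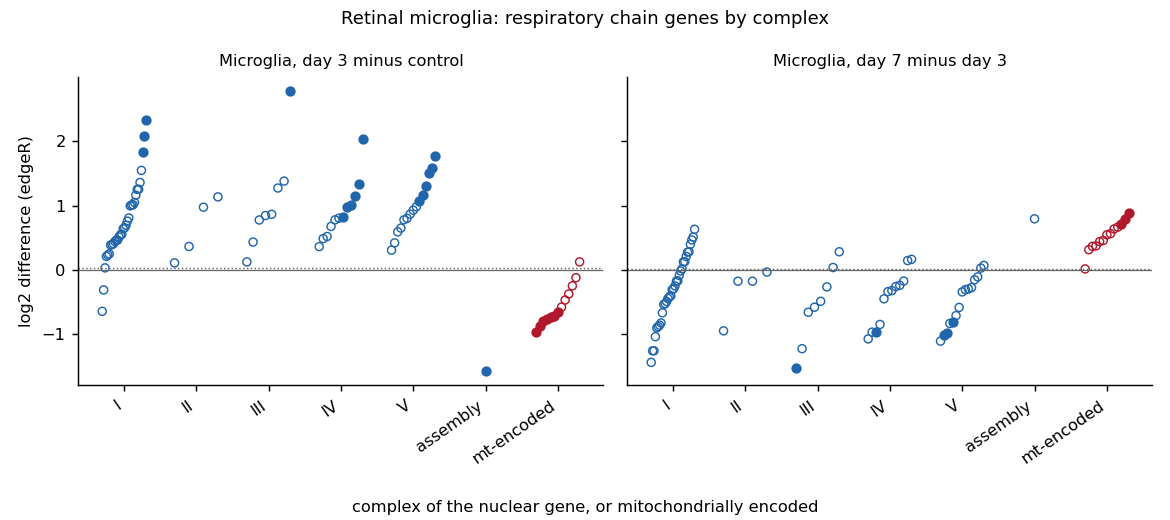
Log2 difference of each tested member in retinal microglia, day 3 minus control (left) and day 7 minus day 3 (right), by complex for nuclear genes (blue) and for mitochondrially encoded genes (red). Filled points were called by edgeR, open points were not, and the dotted line is the median of all genes; on day 3, 69 of 71 nuclear subunits lie above 0 and 12 of 13 mitochondrial genes below it, of which 6 of 13 are above 0 when plain totals replace the scaling.

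In complex V 6 of 15 tested nuclear subunits rose, and the median of the 15 was 0.93. Atp5b, the catalytic beta subunit, had 133.5 and 127 scaled CPM in the control sums and 357 and 421 on day 3. Both day 3 sums were thus far above both control sums, a log2 difference of 1.59 ± 0.27 (SE, n = 2 sums a group, edgeR adjusted p = 0.00067). Atp5f1, of the peripheral stalk, rose from 76.3 and 67.8 to 210 and 198 scaled CPM (log2 1.51 ± 0.34). Atp5o, which links the stalk to the catalytic head, rose from 38.1 and 33.9 to 119.02 and 123 (log2 1.76 ± 0.44). Atp5e, the epsilon subunit of the central stalk, also rose, by 1.31 ± 0.41 on the log2 scale. The alpha subunit Atp5a1 was 114 and 195 in control and 272 and 295 on day 3 without passing the test (edgeR adjusted p = 0.079). The 3 genes for the proton-carrying ring, Atp5g1, Atp5g2 and Atp5g3, had log2 differences of 0.42, 0.59 and 0.78 and were not called.

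In complex IV 6 of 12 tested nuclear subunits rose, with a median log2 difference of 0.81. Cox4i1, the widespread form of subunit 4, had 162 and 97.5 scaled CPM in control and 272 and 269 on day 3 (log2 1.14 ± 0.31, edgeR adjusted p = 0.013). Cox5a rose from 38.1 and 21.2 to 79.3 and 135, and Cox6a1, whose promoter is printed above, from 124 and 153 to 283 and 275. Cox8a, at 267 and 174 in control and 334 and 407 on day 3, passed with the smallest difference of the 6 (log2 0.82 ± 0.28). In none of these 4 genes did the groups overlap. Ndufa4, now counted as a subunit of complex IV, did overlap, at 95.3 and 59.4 in control and 142 and 77.3 on day 3. Cox7a2 (log2 0.78) and Cox7a2l (0.36), which takes part in joining complexes III and IV, were not called.

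Complex III gave 1 call among 8 subunits, Uqcr11, which rests on 3 transcripts in the control sums against 33 on day 3, a ratio of scaled levels of 7.13 with a 95% counting interval of 2.24 to 36.3 (edgeR adjusted p = 0.0081). The Rieske iron-sulfur protein Uqcrfs1 (log2 1.38 ± 0.51, edgeR adjusted p = 0.057) and the core protein Uqcrc1 (1.27 ± 0.48, 0.060) lay just short of the threshold, and Uqcrb had 0.84 ± 0.38. In complex I 3 of 32 nuclear subunits rose, among them the accessory subunits Ndufa8 (19.1 and 25.4 in control, 90.7 and 80.2 on day 3) and Ndufb7 (9.53 and 12.7, then 62.3 and 60.1). Its 2 core subunits in the chosen set did not: Ndufs1 had 28.6 and 72.1 in control and 34.00 and 37.2 on day 3, and Ndufv1 had a log2 difference of 0.64 ± 0.78. Ndufb8, an accessory subunit, had a log2 difference of 0.81 ± 0.38 and was not called. Complex II, the only complex with no mitochondrial gene, had 0 of 4 subunits called by edgeR and 0 at an unadjusted p under 0.05. Its flavoprotein Sdha was at 85.8 and 84.8 in control and 119.02 and 103 on day 3, its iron-sulfur protein Sdhb at 57.2 and 42.4, then 85.0 and 100, and the membrane anchors Sdhc and Sdhd had log2 differences of 0.11 ± 0.48 and 1.13 ± 0.69.

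Among the mitochondrial genes, the strongest fall was in mt-Cytb, the cytochrome b of complex III, from 13576 and 14666 scaled CPM in control to 6075 and 8372 on day 3 (log2 -0.97 ± 0.22, edgeR adjusted p = 0.0049). mt-Nd4, a proton-pumping subunit of complex I, went from 13796 and 13665 to 6506 and 8452 (log2 -0.88 ± 0.22, 0.0076). mt-Nd1, mt-Nd2, mt-Nd3, mt-Nd4l and mt-Atp6 fell by 0.65 to 0.79 on the log2 scale. These calls hold only on the scaling between sums: with plain totals, an alternative chosen after seeing the data that moves the median of all genes to 0.61, none of the 13 fell, mt-Cytb had -0.35 and mt-Nd4 -0.26, and 2 were called higher, mt-Atp8 (0.74) and mt-Co1 (0.51). With wells of at least 1000 transcripts and at most 25% mitochondrial ones, none fell either (mt-Cytb -0.70, edgeR adjusted p = 0.050; mt-Nd4 -0.61, 0.069), 9 of 13 were below 0 and mt-Atp8 was called higher (0.78, 0.021). The 3 genes of the catalytic core of complex IV were not called on either side: mt-Co1 stood at 12366 and 8853 in control and 8427 and 11039 on day 3, and mt-Co2 and mt-Co3 had -0.47 and -0.25. mt-Atp8 overlaps mt-Atp6 in the genome, and mt-Nd4l overlaps mt-Nd4, so reads of such neighbours, and of near-identical nuclear copies of mitochondrial genes, may have been shared between them.

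**Figure D2:**
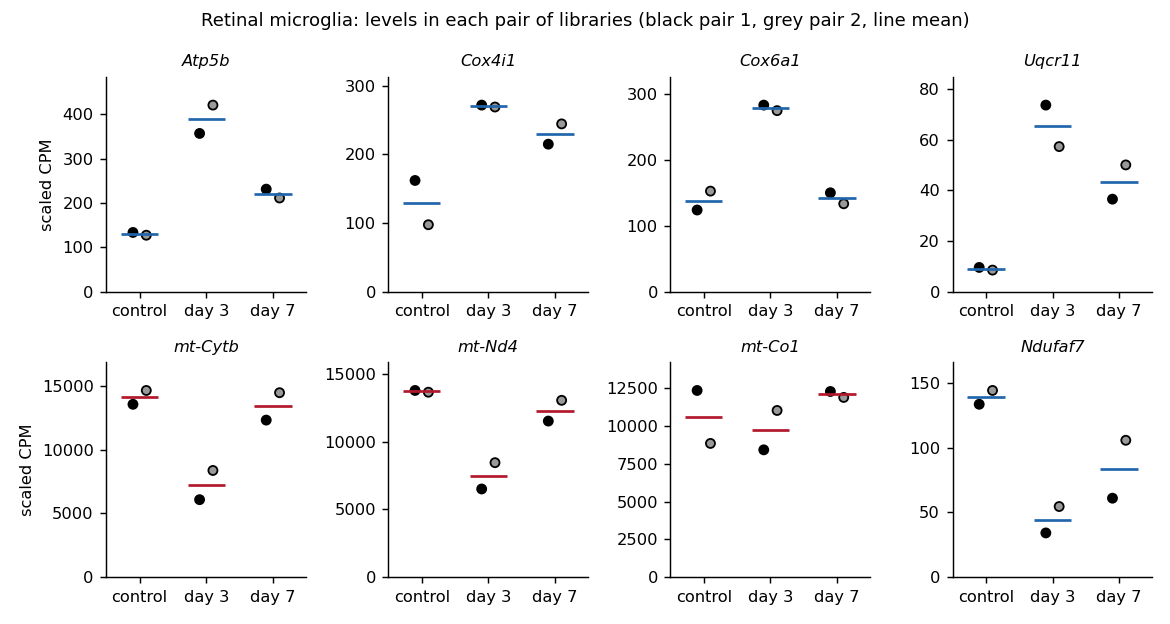
Scaled CPM of 8 members in microglia of the control retina and 3 and 7 days after laser, with 1 point for each pair of libraries and a line at the mean. The nuclear genes Atp5b, Cox4i1, Cox6a1 and Uqcr11 are highest on day 3, mt-Cytb and mt-Nd4 lowest on day 3 (without a call under plain totals), mt-Co1 overlaps between control and day 3, and Ndufaf7 is lowest on day 3.

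Ndufaf7 went against the nuclear subunits, from 133.5 and 144 scaled CPM in control to 34.0 and 54.4 on day 3 (log2 -1.58 ± 0.41, edgeR adjusted p = 0.011). The counts behind it were 48 and 25 transcripts. Its call was lost with plain totals (-0.99, 0.076), with DESeq2, in wells without mitotic transcripts, without the second control pair and without the first day 3 pair.

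Leaving out 1 sum moved these counts. Without the second control pair, 3 members were higher and 8 lower; without the first day 3 pair, 11 and 0; without the second day 3 pair, 3 and 8. With plain totals 52 members were called, 52 higher and 0 lower, where 1207 of 3704 genes were called, and the median was 1.40 over nuclear subunits and 0.61 over all genes. DESeq2 called 2 higher and 4 lower. For DESeq2 and the fits without 1 pair the share of all genes called is not given here. Those counts therefore do not set the chain genes apart from other genes.

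A pair of measures does not depend on the scaling between sums. The share of nuclear chain transcripts was taken among retained transcripts, meaning all except mitochondrial transcripts and 77 further genes that the authors' tables lack. In microglia it was 0.830% and 0.807% in the control sums, 1.37% and 1.39% on day 3, and 1.02% and 1.13% on day 7. The 3 groups did not overlap, and day 7 lay between the other 2. Nuclear chain transcripts per 100 mitochondrial mRNA transcripts were 4.60 and 5.09 in control, 14.5 and 10.8 on day 3, and 6.52 and 6.69 on day 7. In wells with at most 25% mitochondrial transcripts the same ratio was 7.12 and 6.25, then 14.8 and 13.2, then 8.43 and 7.27. With 2 sums a group no exact test of these values could pass 0.05, so they are given without one.

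The mitochondrial side of that ratio was less even: mitochondrial mRNA per 100 retained transcripts was 18.05 and 15.9 in control, 9.46 and 12.8 on day 3 and 15.7 and 16.9 on day 7. In wells at or under 25% it was 10.9 and 12.7, then 9.17 and 10.6, then 11.3 and 14.7. A single well held 33.9% of the mitochondrial mRNA of the first control pair. As a share of all transcripts, mitochondrial mRNA overlapped between control (7.80% and 7.65%) and day 3 (6.62% and 8.64%), with 8.74% and 8.89% on day 7. In the median well this share was higher on day 3, at 7.38% and 8.14%, than in control, at 4.83% and 6.30%. On day 7 it was 6.58% and 7.61%.

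The shares of the complexes within the nuclear chain transcripts of microglia moved little. Complex I held 29.3% and 30.2% in control and 28.4% and 28.3% on day 3, complex IV 26.3% and 22.5%, then 26.03% and 25.6%. Complex V went from 28.9% and 29.4% to 31.3% and 32.6%, and stood at 29.7% and 29.1% on day 7. The assembly factors held 4.42% and 5.81% in control, 1.99% and 1.62% on day 3 and 3.43% and 3.68% on day 7, and did not overlap between any 2 of the groups.

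Other sets of transcripts moved with the day 3 microglia. Of 17 tested cell cycle genes, 14 were higher on day 3, with a summed level of 2606 to 3826 against 462.1 to 724.6 scaled CPM in control; 5 of the 19 listed were at 0 in control. Transcripts of any of 8 mitotic genes were found in 19 of 30 and 27 of 51 day 3 microglia wells, against 2 of 32 and 8 of 88 in control and 11 of 63 and 13 of 50 on day 7. The share of nuclear chain transcripts in wells without mitotic transcripts was 0.824% and 0.822% in control, 0.972% and 1.28% on day 3 and 0.980% and 1.12% on day 7. In wells with them it was 0.891% and 0.679% in control, 1.497% and 1.46% on day 3 and 1.19% and 1.155% on day 7. Wells with mitotic transcripts thus had the higher share in both pairs of day 3 and of day 7. In control they had the higher share in the first pair and the lower share in the second, from 2 and 8 wells. With wells without mitotic transcripts only, an alternative chosen after seeing the data, 50 members could be tested and 1 rose and 6 fell. The share of all genes called in those wells is not given here, so a loss of calls is not particular to the chain. The 36 nuclear subunits tested had a median of 0.58, and the lost calls include Atp5b (log2 1.21, edgeR adjusted p = 0.072).

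Photoreceptor transcripts went the other way after scaling, with 4 of 15 tested markers lower on day 3. They summed to 1581 to 2426 scaled CPM against 3299 to 5872 in control, and all 16 markers had transcripts in both groups. Their share of all transcripts overlapped, at 0.229% and 0.453% in control and 0.178% and 0.262% on day 3. Monocyte markers stood at 532.7 to 761.9 against 38.2 to 47.7, with 1 of 3 tested called, and 6 of 10 microglia markers were lower and 1 higher. Genes absent from both of the authors' tables, other than mitochondrial ones, held 44.9% and 39.6% of microglia transcripts in control and 18.4% and 18.3% on day 3. With the absent genes left out, an alternative chosen after seeing the data, 17 of 67 nuclear subunits tested were called higher and none lower, with a median of 0.86. No share of all genes called is given beside that count. In wells under 1% photoreceptor transcripts 12 members were higher and 8 lower, of 79 tested, where 745 of 3116 genes were called, and Atp5d, Atp5j, Cox8a and Ndufa11 were no longer called. The part of the monocyte and microglia markers was not tested.

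Genes that work beside the chain were read from lists. Among carriers, porins and cytochrome c 3 of 9 tested rose on day 3: Ucp2, a carrier of the inner membrane named as an uncoupling protein, from 229 and 225 to 527 and 736 scaled CPM (log2 1.49 ± 0.28, edgeR adjusted p = 0.0013), the ADP/ATP carrier Slc25a5 (1.13 ± 0.25) and cytochrome c, Cycs (1.31 ± 0.39). The list's median was 0.87. Of 10 tested genes of the TCA cycle and pyruvate dehydrogenase 1 rose, Dld, from 1 transcript to 18, a ratio of 11.7 with a 95% counting interval of 1.84 to 486; the list's median was 0.86. Among 3 tested genes of the hypoxia response 1 rose, lactate dehydrogenase Ldha (log2 1.33 ± 0.31, 0.0053). None of 6 tested chain assembly genes outside the rule, and none of 3 for mitochondrial gene expression, was called.

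Day 7 microglia were compared with the same day 3 sums. Of 85 members tested 3 rose and 5 fell, a share close to that of all genes, of which 9.07% were called (4.72% higher, 4.35% lower). The 3 that rose were mitochondrial: mt-Cytb, from 6075 and 8372 to 12334 and 14488 scaled CPM (log2 0.89 ± 0.22, edgeR adjusted p = 0.019), mt-Nd3 (0.78) and mt-Nd4 (0.72), none of which was called with plain totals. The 5 that fell were Cox6a1 (283 and 275 to 150 and 133.4, log2 -0.97 ± 0.28, 0.036), Uqcrc1 (108 and 100 to 28.4 and 44.5), Atp5b (357 and 421 to 231 and 211), Atp5f1 and Atp5a1. All of these groups of sums were apart. The median was -0.32 over the 71 nuclear subunits, with 55 below 0, and 0.55 over the mitochondrial genes, with 13 of 13 above 0; plain totals, which move the median of all genes to -0.34, left 11 of 13 above 0.

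Here too other transcripts moved: 11 of 17 cell cycle genes were lower on day 7 (551.8 to 872.9 scaled CPM), 10 of 15 photoreceptor markers were higher (6139 to 7411) and 3 of 5 Müller glia and astrocyte markers were higher (6844 to 7678 against 725.4 to 2881). Ucp2 and Ldha fell (log2 -0.89 ± 0.26 and -0.94 ± 0.29). The number of members called moved when 1 pair was left out. This was so also for the second control pair, which enters through filtering, scaling and the estimate of spread. In wells without mitotic transcripts 0 members were called. The share of all genes called in these settings is not given here. They therefore do not set the chain genes apart from other genes.

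Against control, day 7 microglia gave 0 calls among the 85 members, where 0.999% of all genes were called (0.648% higher, 0.351% lower); 9 members had an unadjusted p under 0.05 and DESeq2 called 0. Nuclear subunits still had a median of 0.39, with 59 of 71 above 0, and the mitochondrial genes -0.07. Cox4i1 was 162 and 97.5 in control and 215 and 245 on day 7 (log2 0.90 ± 0.32, edgeR adjusted p = 0.19), Atp5b 133.5 and 127, then 231 and 211 (0.77 ± 0.29, 0.22), and Cox6a1 overlapped (124 and 153, then 150 and 133.4). The comparisons of day 3 and day 7 share the same control sums.

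The make-up of the mitochondrial mRNA, meaning the share of each of the 13 genes among all mitochondrial mRNA transcripts, does not depend on scaling either. In control microglia mt-Co1 was 11.0% and 8.94% of it, on day 3 14.3% and 13.8%, and on day 7 12.6% and 11.2%. mt-Cytb went the other way, from 12.1% and 14.8% to 10.3% and 10.5%, then 12.6% and 13.7%. Day 3 microglia lay apart from control in both. mt-Atp8 made up 1.70% and 1.57% in control and 2.53% and 2.82% on day 3, while mt-Atp6 (15.7% and 15.6%, then 13.6% and 14.9%) and mt-Nd4 (12.3% and 13.8%, then 11.1% and 10.6%) were lower in both day 3 sums. Among wells at or under 25% mitochondrial transcripts the order held, with mt-Co1 at 9.67% and 8.05% in control and 14.4% and 13.8% on day 3. The other annotated classes with more than 5 wells had mt-Co1 at 12.3% to 15.7%, above every sum of control microglia in the retina table, and mt-Cytb at 9.23% to 13.1%. mt-Nd6, read from the opposite strand of the mitochondrial genome, made up at most 0.131% in any sum.

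**Figure D3:**
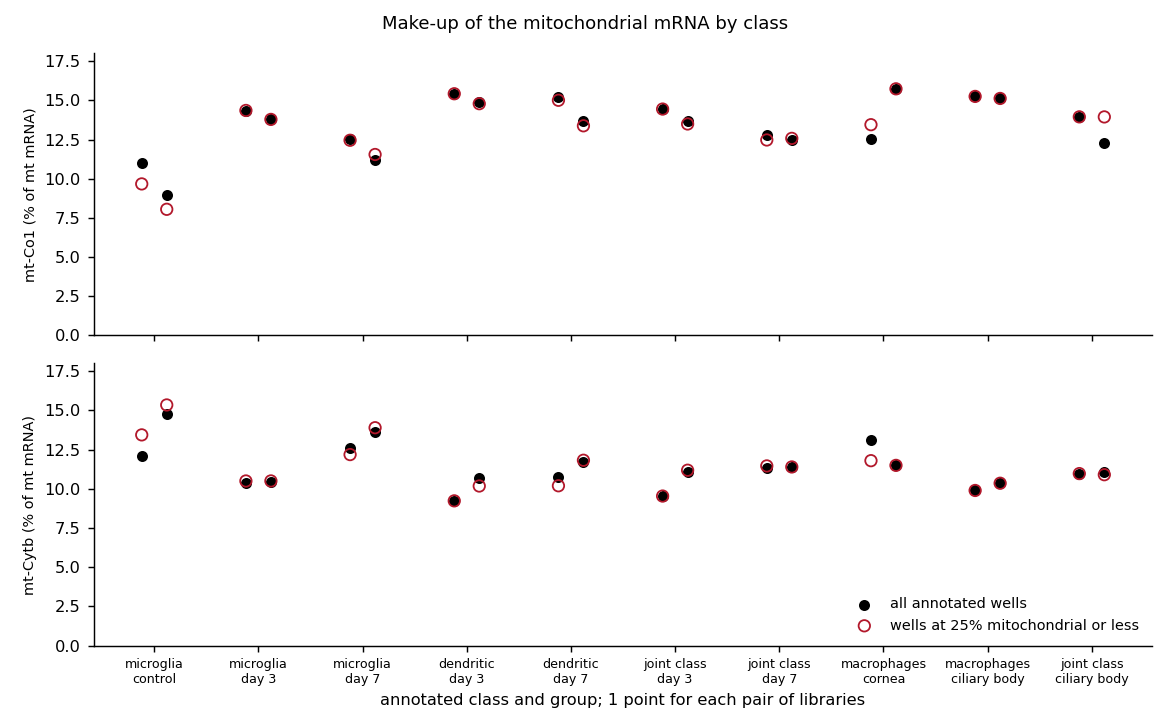
Share of mt-Co1 (upper) and mt-Cytb (lower) among mitochondrial mRNA transcripts, in percent, for each pair of libraries by annotated class and group; black points are all annotated wells and red circles wells with at most 25% mitochondrial transcripts. Among the classes plotted control microglia have the lowest mt-Co1 shares, 11.0% and 8.94%, against 14.3% and 13.8% in day 3 microglia.

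The classes within the lasered retina were compared over both days, with 4 sums a class and the library pair as a block. Between DCs and microglia few chain genes were called. Of 77 members tested 4 rose and 4 fell in DCs, where 30.9% of all 2644 genes tested were called (15.7% higher, 15.3% lower). Cox7a2l led, at 338, 448, 511 and 462 scaled CPM in the DC sums and 159, 224, 228 and 238 in the microglia sums, with no overlap (log2 1.04 ± 0.25, edgeR adjusted p = 0.0037). Atp5e (0.89 ± 0.24), Ndufa6 (0.88 ± 0.25) and Cox5b (0.92 ± 0.27) were the others. The 4 lower genes were mt-Nd5, mt-Nd2, mt-Nd4 and mt-Cytb, which fell by 0.55 to 0.65 on the log2 scale with sums that overlapped; with plain totals none of them was called.

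Most members were not called. Cox4i1, for example, stood at 308 to 347 scaled CPM in the DC sums and 288 to 339 in the microglia sums. Atp5b stood at 289 to 429 in DCs and 283 to 531 in microglia. The medians were 0.14 over 64 nuclear subunits and -0.44 over the mitochondrial genes. In DCs all 9 tested dendritic cell markers were higher and all 10 microglia markers lower; of the other pathway genes Mdh2, the malate dehydrogenase of the TCA cycle, rose (log2 2.27 ± 0.32) and Vdac2, a porin of the outer membrane, fell (-0.81 ± 0.25). Without the block 5 members were called, all 5 higher. Leaving out the first day 3 pair left 5 calls, and leaving out the first or the second day 7 pair 4 and 3. The share of all genes called in these alternative fits is not given here. Their counts therefore do not set the chain genes apart from other genes.

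In the joint class 2 members rose against microglia and 7 fell, where 24.1% of all genes were called (11.3% higher, 12.9% lower). Cox5b stood at 249, 219, 141 and 246 scaled CPM in the joint class and 125, 130, 65.1 and 89.4 in microglia (log2 1.03 ± 0.28, edgeR adjusted p = 0.011), and Cox5a rose by 1.14 ± 0.32 on the log2 scale with overlapping sums. The 7 that fell were mt-Nd1, mt-Nd2, mt-Nd3, mt-Nd4, mt-Nd5, mt-Cytb and mt-Co1, by 0.51 to 0.72 on the log2 scale; with plain totals none of the mitochondrial genes was called and all 13 stayed below 0. Without the block 2 members were called, both higher. Leaving out the first day 3 pair left 1 call, and leaving out the first or the second day 7 pair 2 and 4. Here too the share of all genes called in the alternative fits is not given. The single member called between DCs and the joint class was Cox7a2l (338 to 511 against 159 to 258 scaled CPM, log2 1.01 ± 0.26, edgeR adjusted p = 0.026), where 6.09% of all genes were called (3.71% higher, 2.38% lower); it was lost without the second day 3 pair and without either day 7 pair. Monocyte markers were higher in the joint class than in microglia in 5 of 6 tested.

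**Figure D4:**
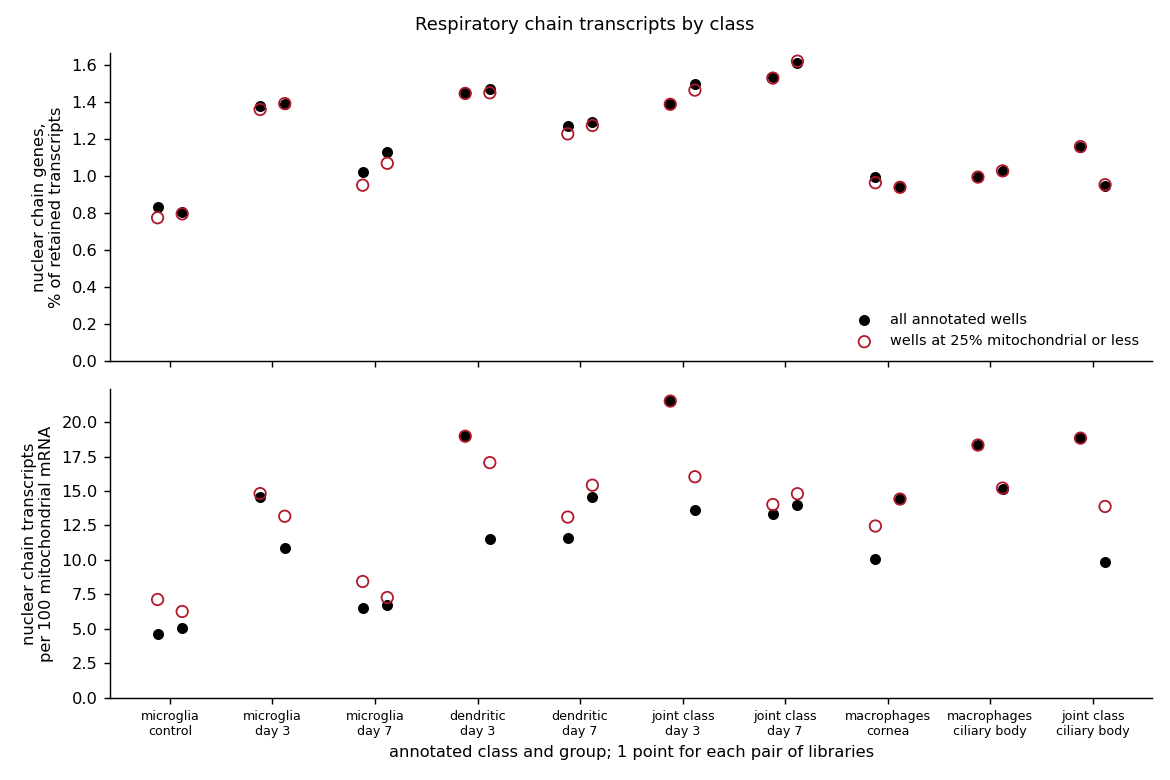
Nuclear chain transcripts as a percent of retained transcripts (upper) and per 100 mitochondrial mRNA transcripts (lower), for each pair of libraries by annotated class and group; black points are all annotated wells and red circles wells with at most 25% mitochondrial transcripts. Among the classes plotted control microglia are lowest in both, at 0.830% and 0.807% and at 4.60 and 5.09, and day 3 microglia, at 1.37% and 1.39%, lie near the DCs and joint class of the same day (1.39% to 1.498%).

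The share of nuclear chain transcripts in day 3 microglia, 1.37% and 1.39%, lay at or just under that of the other classes of the lasered retina on that day. DCs had 1.44% and 1.47% of retained transcripts on day 3 and 1.27% and 1.29% on day 7, and the joint class 1.39% and 1.498%, then 1.53% and 1.61%. Per 100 mitochondrial mRNA transcripts DCs had 19.0 and 11.5 on day 3 and the joint class 21.5 and 13.6. Between days, 0 members were called in DCs, where 0.0551% of all genes were (4 members at an unadjusted p under 0.05, DESeq2 0), and 0 in the joint class, where 1.4% of all genes were, 0.441% higher and 0.964% lower (3 members, DESeq2 0, and 4 calls without the second day 3 pair). A test of whether the day 7 against day 3 difference of microglia differed from that of DCs called 0 of 84 members (3 at an unadjusted p under 0.05, lowest edgeR adjusted p 0.47), and 0 of 84 against the joint class (10, lowest edgeR adjusted p 0.12). A change of the chain over these days particular to microglia was therefore not shown. The share of all genes called in the joint class without the second day 3 pair is not given here.

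Macrophages of the cornea and of the ciliary body were each compared with the control microglia of the retina, which they share as a reference, in a fit where 86 members and 4497 genes were tested. The ciliary body libraries share no title number with those of the control retina. Compartment and title number therefore cannot be told apart in that comparison. In both compartments most mitochondrial genes were lower than in microglia, while the nuclear subunits called higher, 8 of 71 in the cornea and 11 of 71 in the ciliary body, were no larger a share than among all genes. In the ciliary body 11 members rose and 11 fell, where 29.7% of all genes were called (17.1% higher, 12.7% lower). The 11 that fell were all mitochondrial, led by mt-Nd2 (9621 and 9891 scaled CPM in microglia, 2550 and 3117 in ciliary body macrophages, log2 -1.78 ± 0.32, edgeR adjusted p = 0.00098). mt-Cytb went from 12766 and 17544 to 3936 and 4796 (log2 -1.80 ± 0.36, 0.0022). All 13 mitochondrial genes lay below 0 in the scaled fit and with plain totals, with medians of -1.55 and -1.21, while in wells passing a filter of 1000 transcripts and at most 25% mitochondrial ones 9 of 13 did, and mt-Co1 and mt-Co3 stood at 0.13 and 0.048.

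Of the 11 members that rose in the ciliary body 5 belonged to complex V, 3 to complex III and 3 to complex IV, and 0 of 32 nuclear subunits of complex I did. Atp5e had 51.3 and 55.4 scaled CPM in microglia and 151 and 127 in the macrophages (log2 1.36 ± 0.35, edgeR adjusted p = 0.010), Cox7a2l 103 and 107, then 289 and 203 (1.21 ± 0.33, 0.012), and Atp5b 120 and 131, then 215 and 301 (1.04 ± 0.31, 0.023). Uqcrfs1, Cox7b, Atp5l, Atp5f1, Cox4i1, Atp5o and Uqcrh rose as well, by 0.93 to 1.49 on the log2 scale, and Uqcr11 rested on 2 transcripts in microglia and 37 in macrophages (ratio 7.23, 95% counting interval 1.87 to 62.0). No subunit of complex II was called, with Sdha at 76.9 and 99.0 in microglia and 68.8 in both macrophage sums.

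In the cornea 8 members rose and 12 fell, where 34.7% of all genes were called (18.4% higher, 16.3% lower). The 12 that fell were 10 mitochondrial genes, led by mt-Nd3 (3443 and 4961 scaled CPM in microglia, 1550 and 767 in cornea macrophages, log2 -1.86 ± 0.37, edgeR adjusted p = 0.0018), and 2 nuclear genes for complex I. Ndufaf7 had 128 and 154 in microglia and 33.9 and 12.8 in cornea macrophages (log2 -2.61 ± 0.55, 0.0025), a call kept in all 14 alternatives that could be run for it, and the accessory subunit Ndufc1 went from 68.4 and 79.2 to 27.1 and 32.1, a call lost in 11 of 14 alternatives. Ndufaf7 stood at 116 and 48.1 in ciliary body macrophages, without a call. The 8 that rose were Cox7b (34.2 and 51.5 to 125 and 118.8), Cox5a (34.2 and 23.8 to 91.4 and 86.7), Uqcrfs1, Atp5e, Atp5o, Cox6b1, Ndufa4 (76.9 and 91.1 to 193 and 138) and Uqcrq. Cox7a2l, at 220 and 173 in cornea macrophages, fell just outside the threshold (log2 0.90 ± 0.34, edgeR adjusted p = 0.0503). The median over the mitochondrial genes was -1.09, with mt-Co1 and mt-Co2 not called (-0.62 and -0.71), beside 0.33 over nuclear subunits and 0.14 over all genes.

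**Figure D5:**
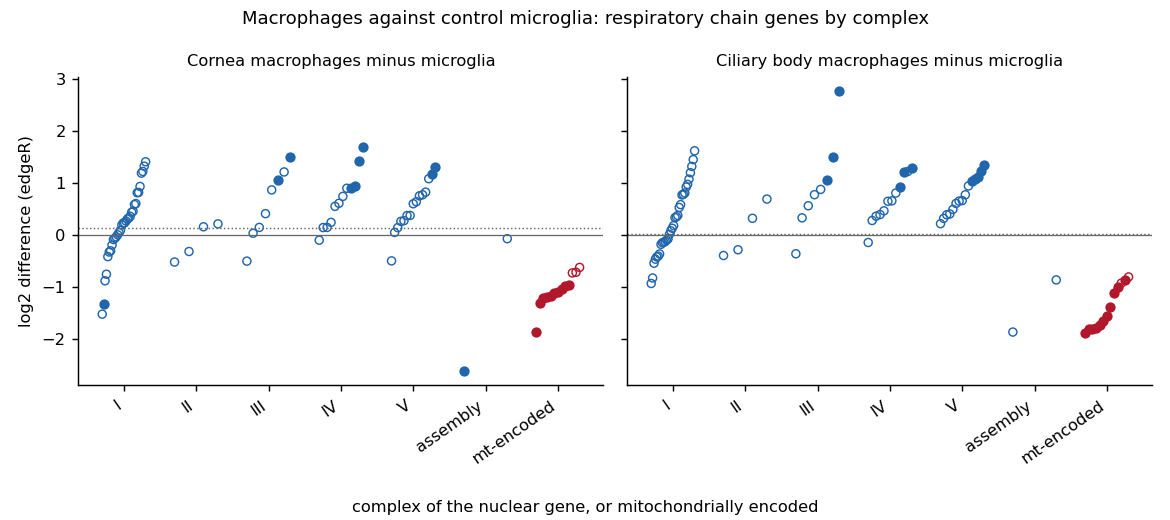
Log2 difference of each tested member between macrophages and control microglia, for the cornea (left) and the ciliary body (right), by complex for nuclear genes (blue) and for mitochondrially encoded genes (red). Filled points were called by edgeR, open points were not, and the dotted line is the median of all genes; the mitochondrial genes lie below 0 in both panels, 10 and 11 of 13 called, and in wells passing the filter on mitochondrial share 2 and 4 of them lie above 0. The highest point of the ciliary body panel, Uqcr11, rests on 2 transcripts in microglia.

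Leaving out the second control pair left 1 member higher and 5 lower in the cornea, and 0 and 8 in the ciliary body. Leaving out the first control pair or the second cornea pair left 11 and 9 calls in the cornea, and leaving out the first ciliary body pair 13 in the ciliary body. With plain totals 22 members were higher and 3 lower in the cornea, and 25 and 8 in the ciliary body, as the median of all genes moved to 0.58 and 0.36 and 1782 and 1373 of 4497 genes were called. The cornea's 10 mitochondrial calls became 2 with plain totals and 4 in wells passing the filter. For the fits without 1 pair and the wells passing the filter the share of all genes called is not given here. Those counts therefore do not set the chain genes apart from other genes. Nuclear chain transcripts made up 0.994% and 0.939% of retained transcripts in cornea macrophages and 0.994% and 1.03% in ciliary body macrophages, against 0.844% and 0.873% in the control microglia of the same table. Mitochondrial mRNA per 100 retained transcripts was 9.85 and 6.51 in the cornea, 5.42 and 6.78 in the ciliary body and 18.02 and 20.5 in the microglia. Among the microglia 2 of 33 and 9 of 86 wells, each over 25% mitochondrial, held 42.9% and 46.2% of it. Without such wells it was 7.73 and 6.51 in the cornea, 5.42 and 6.75 in the ciliary body and 11.1 and 12.6 in microglia. The median well's mitochondrial mRNA share overlapped between cornea (5.27% and 4.96%) and microglia (4.67% and 6.42%). In the ciliary body it was 3.88% and 3.64%.

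Other transcripts differed beside these. Of 8 tested cell cycle genes 6 were higher in each compartment (897.0 to 1753 scaled CPM in cornea and 1195 to 1232 in ciliary body macrophages, 447.4 to 649.4 in microglia), and 3 and 5 of 13 photoreceptor markers were lower. Cornea macrophages held 12765 to 17035 scaled CPM of markers of corneal epithelium and keratocytes, against 17.1 to 978.0 in microglia, with 4 of 7 called higher. In wells under 1% photoreceptor transcripts 9 members were higher and 10 lower in the cornea, where Ndufc1, Uqcrq and mt-Co3 were no longer called, and 14 and 9 in the ciliary body, where Atp5f1, Atp5o, mt-Co1 and mt-Co3 were no longer called. No share of all genes called is given for the wells under 1% photoreceptor transcripts. Those counts therefore do not set the chain genes apart from other genes. The part of the cell cycle and corneal markers was not tested. Ucp2 rose in both compartments (log2 1.80 ± 0.31 in the cornea, 1.88 ± 0.31 in the ciliary body), as did Pdha1, a subunit of pyruvate dehydrogenase, from 2 transcripts in microglia. Slc25a5 (1.12 ± 0.31) rose in the cornea, where the 2-oxoglutarate carrier Slc25a11 fell (-1.30 ± 0.45), and Cycs rose in the ciliary body (1.09 ± 0.39). Ssbp1, which binds mitochondrial DNA, fell in both (-1.57 ± 0.50 and -1.44 ± 0.46).

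Between cornea and ciliary body macrophages 0 members were called, where 3.51% of all genes were, 2.56% higher and 0.956% lower (8 members at an unadjusted p under 0.05, DESeq2 0). Leaving out the first cornea pair, the first control pair or the second ciliary body pair gave 3, 2 and 1 calls. Between the joint class and macrophages of the ciliary body 0 of 87 were, where 5.47% of all genes were, 2.76% higher and 2.71% lower (1 member, DESeq2 0). The joint class there had 1.16% and 0.946% of retained transcripts in nuclear chain genes. No share of all genes called is given for the fits without 1 pair between cornea and ciliary body macrophages.

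Members with tissue-restricted forms were rare. Cox7a1 and Cox4i2, the muscle and lung forms of their subunits, and Ndufa4l2, a gene known to respond to low oxygen, had at most 1 transcript in the microglia of control and day 3 together and were not tested. Cox6a2, the heart and muscle form of subunit 6a, had 0 transcripts in 120 control microglia wells of the retina table and a single transcript in those of the compartment table. It had 30 transcripts in 7 of 46 joint class wells on day 3 and 21 in 4 of 41 on day 7, 11 in 5 of 81 microglia wells on day 3 and 1 in 1 of 82 DC wells. Cox6b2, the testis form, named here after its values were seen, had 11 transcripts in 9 of 82 day 3 DC wells and 0 in the microglia and joint class of that day. Of the 109 members 19 were too low to be tested in any fit.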

How the data were processed

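Per the labels' protocols, single CD45+ cells were sorted into plates and sequenced by mCEL-Seq2. The authors deposited, for each of 20 libraries, estimated counts for every gene in each well, in which the number of distinct identifiers was corrected for chance collisions. BWA 0.6.2-r126 is named in the submitters' processing notes; the genome build, annotation, strand setting and treatment of shared reads were not given in the sources used here. Deposited tables gave the authors' cell type for 511 wells of the retina and 429 of the compartments (829 in either, 111 in both), and each was joined to the library well of its named group, title prefix and well number with identical values. The 192 well numbers are the same in every library by design.

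Estimated counts were summed over a class in both libraries of a pair, rounded, and sums of under 5 wells were left out. Genes passing filterByExpr were scaled by TMM and tested with edgeR 4.0.16 (robust quasi-likelihood fit, R 4.3.3), with Benjamini-Hochberg adjustment over all genes tested at 0.05. Each of the 12 comparisons used the fit across all genes of its classes; the classes of the lasered retina carried the library pair as a block. The standard error (SE) is the size of the unshrunk log2 difference divided by the square root of F. The code was tested on simulated data. DESeq2 1.42.0, other scalings, filters and well sets were alternatives; figures used matplotlib 3.10.9. No doublet caller was run, since only the authors' annotated wells were summed.

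Named members are those past the threshold, by adjusted p, at most 12 a direction, plus a set of catalytic, core and isoform subunits; other pathway genes are named only when called. Members and lists were chosen with earlier results of these data known. Counting intervals are exact at 95%, and cover counting error only.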

Additional observations from a re-analysis of the deposited data

Results flagged for a closer look

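There were 30 combinations of group, well set and measure with 4 libraries each. In 5 of them the gap of 1 library to the others was large for its group, where chance gives about 1 in 20. The 30 share libraries and transcripts and are not independent, so the 5 cannot be set against that rate. Among annotated wells, nuclear chain genes held 0.7525% of transcripts in cornea library 1, which has 9 such wells against 28 to 52 in the other cornea libraries. Over all wells they held 0.9734% in control library 1. Day 3 library 4 had 9.763% mitochondrial mRNA and 9.997 nuclear chain transcripts per 100 mitochondrial mRNA transcripts in its annotated wells. Over all wells, day 7 library 4 had 9.159 nuclear chain transcripts per 100 mitochondrial ones.

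Rare isoforms had transcripts in wells outside the annotation, which no comparison used. Per 1000000 transcripts, Cox6a2 stood at 11.71 on day 3, from 12 transcripts in 9 of 559 wells, against 3.23 in control with an upper 95% counting bound of 7.04. Cox8b, the heart and muscle form of subunit 8, stood at 23.82 in the ciliary body (15 transcripts in 6 of 584 wells) and 7.092 on day 7 (13 in 3 of 588), against 0.539 in control with an upper bound of 3.002. Ndufa4l2 stood at 6.352 in the ciliary body, from 4 transcripts in a single well, where control had none and its upper bound was 1.99.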

How the results depend on the processing

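Counts of called members that moved by over 1.5 times are given here by comparison, and the cause was not tested. The share of all genes called in each setting is not given here. These counts therefore do not set the chain genes apart from other genes. On day 3 against control, where 24 members were called in microglia, DESeq2 called 6, plain totals 52, wells with a second call as microglia 13 and wells without mitotic transcripts 7, and leaving out 1 pair gave 11 to 25. Against control on day 7 (0 called), plain totals gave 4, single libraries 3 and leaving out 1 pair 0 to 1. For day 7 against day 3 (8 called), DESeq2 gave 1, no low-count filter 2, leaving out mitochondrial genes 5, the second call 1, wells without mitotic transcripts 0 and leaving out 1 pair 0 to 14. For DCs against microglia (8), no filter gave 5, leaving out mitochondrial genes 5, leaving out genes that the authors' tables lack gave 4, no replicate block 5 and leaving out 1 pair 3 to 9. For the joint class against microglia (9), plain totals gave 5, the same omissions 3 and 2, single libraries 19, no replicate block 2 and leaving out 1 pair 1 to 8. For DCs against the joint class (1), no filter gave 2 and leaving out 1 pair 0 to 1. For the joint class between days (0), wells passing the depth and mitochondrial filter gave 1 and leaving out 1 pair 0 to 4. Cornea macrophages against microglia (20) gave 12 with DESeq2, 9 without mitochondrial genes, 9 without the absent genes and 6 to 21 without 1 pair; ciliary body macrophages (22) gave 13, 10, 11 and 8 to 27. In the passing wells mt-Co1 (0.128) and mt-Co3 (0.0479) were above 0 in the ciliary body. Cornea against ciliary body macrophages (0) gave 1 with no filter, 2 with single libraries and 0 to 3 without 1 pair. Plain totals, wells without mitotic transcripts and leaving out the absent genes were chosen after seeing the data.

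The title numbers pair the microglia sums only by number: deviations correlated at 0.016, 0.192 and -0.074, and a replicate block gave 24, 0 and 10 calls for day 3 and day 7 against control and day 7 against day 3. No paired analysis was possible for the compartments because they share fewer than 2 numbers with the control pairs. The ciliary body shares no number with the control retina or the cornea, so its compartment and title number cannot be told apart. Leaving out a pair was not run for the ciliary body classes, whose block needs both.

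Mean library shares moved between well sets. Nuclear chain genes went from 0.765% of all wells to 0.389% of annotated wells in control, from 0.854% to 1.001% on day 3 and from 0.940% to 0.701% in the cornea. Mitochondrial mRNA in passing and annotated wells was 8.47% and 8.55% in control, 5.62% and 6.65% on day 3, 8.04% and 8.06% on day 7, 3.31% and 5.33% in the cornea, and 4.32% and 4.33% in the ciliary body, against 19.1%, 8.83%, 12.3%, 3.70% and 5.99% of all wells. Low counts limit the small subunits: members with under 10 control transcripts rest on a few molecules.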

Other observations

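Cox6a2 transcripts sat in few wells. In the annotated wells of the retina table, 6 wells with at least 3 transcripts held 49 of the 71 Cox6a2 transcripts, and 5 of them were of the joint class and 1 of microglia. Genes named after their values were seen describe these wells. Siglech and Tcf4, both high in plasmacytoid dendritic cells, had transcripts in all 6 wells, against 278 and 219 of the 488 wells without Cox6a2. Ccr9, a chemokine receptor, was found in all 6 and in 39 of the 488, and Ly6d in 5 of the 6 and in 1 of the 488. The median depth was 9274 transcripts in the 6 wells and 4532 in the 488, so depth moved with this too, and its part was not tested.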
